A study of Mus musculus with 12 samples.

Results

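The genes described here are cadherins other than Cdh1 and Cdh2, and the protocadherins, in mouse breast tumours. Every protein-coding gene of the count table whose symbol starts with Pcdh, or with Cdh followed by a digit, was taken, and Cdh1 and Cdh2 (E- and N-cadherin) were dropped. This gave 90 genes of 55487 in the table, of which 21936 are protein-coding. They fall into 3 type I cadherins, 13 type II cadherins, 5 other cadherins, 12 protocadherins outside the gene clusters, and 57 clustered protocadherins, with 14 in the Pcdha, 22 in the Pcdhb and 21 in the Pcdhg cluster. The symbol Pcdha11 is carried by 2 gene identifiers, and each counts as a gene.

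Polyadenylated RNA was sequenced from breast tumours of 12 MMTV-PyMT mice on the C57BL/6J strain. In this model the polyoma virus middle T oncogene is expressed in mammary epithelium from the promoter of mouse mammary tumour virus, and the mice of both groups carry it. The comparison asks how the tumours of 6 mice with the Bad3SA genotype, whose BAD protein (a pro-apoptotic BCL2 relative) cannot be phosphorylated at its regulatory serines, differ from those of 6 mice with wild-type Bad (Bad_WT). Each library came from a separate mouse, taken at an end-point age of 21.3 to 27.1 weeks in Bad_WT (median 23.9) and 22.9 to 31.1 weeks in Bad3SA (median 27.9).

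Cadherins are calcium-dependent adhesion proteins of the cell surface. Type I and type II cadherins bind like partners on the neighbouring cell and hold the actin cytoskeleton through catenins. Protocadherins have more extracellular cadherin repeats, bind weakly and signal through other intracellular partners. The clustered protocadherins are best known from neurons, where each cell uses a few promoters out of a long row of alternative ones, chosen with the help of CTCF, cohesin and DNA methylation, and so carries its own surface label. In the Pcdha and Pcdhg clusters, each variable first exon is spliced to constant exons shared by the whole cluster, whereas Pcdhb genes are single-exon genes with no constant part. In the breast, P-cadherin (Cdh3) is known from the myoepithelium and VE-cadherin (Cdh5) from blood vessels.

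Total counts ran from 58096172 in Bad3SA 5 to 83296370 in Bad_WT 2, so that 3 counts were worth 0.0346 to 0.0545 CPM (the count scaled to library size). Luminal epithelial markers (Krt8, Krt18, Epcam and 4 others) summed to 4630 to 6550 CPM in every tumour, as the tissue label calls for. Bad3SA changes codons and leaves the transcript in place, so counts per gene give no check of the genotype labels. The skeletal muscle markers summed to 973 CPM in Bad_WT 4 against 1.14 to 124 CPM in the other 11 tumours. In bulk tumours, fewer cells of a type and less RNA per cell cannot be told apart.

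These genes were mostly rare in the tumours. Only 9 of the 90 had a mean of at least 10 CPM, and 52 stood below 1 CPM. The filter on low counts asked for about 0.14 CPM (10 counts at the median depth) in 6 tumours. It passed 61 of the 90, of which 41 were over that level in all 12 tumours. Pcdha11 (ENSMUSG00000007440), Cdh6 and Pcdh9 were over it in at most 1 Bad3SA tumour, and Pcdhga11 in at most 1 Bad_WT tumour, so these 4 passed through 1 group. Of the 29 that did not pass, Pcdha4 and Pcdhga10 had no count in any tumour, and the others had 1 to 168 counts in all. For Pcdha4 only 494 of 5768 exonic bases are free of other genes on its strand. For Pcdhga10 it is 0 of 4732 when both strands are taken. How far these overlaps set the missing counts was not tested. Among these 29, 14 had more counts in Bad_WT, 10 had more in Bad3SA and 5 had equal numbers.

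Bad3SA tumours had lower levels of 6 of these genes and higher levels of none at an edgeR adjusted p below 0.05 over 18019 genes. The 6 were the muscle cadherin Cdh15, the non-clustered Pcdh9, and 4 clustered protocadherins: Pcdha11 (ENSMUSG00000007440), Pcdhb10, Pcdhb11 and Pcdhga1. They make up 9.84% of the 61 tested, beside 0.76% of all genes tested that were called lower. Among all genes tested, 1.38% were called in either direction and 0.622% were called higher. For the higher direction, 3 of the 61 had an unadjusted p below 0.05, beside 1294 of the 18019 genes tested. DESeq2 called Cdh3 and Pcdhga11 higher, among 479 genes of the whole table that it called higher. In either direction 20 of the 61 (32.8%) had an unadjusted p below 0.05, beside 16.2% of all genes tested. The log2 fold change was below 0 for 45 of the 61 (73.8%) with a median of -0.39, whereas 49.6% of all genes tested were below 0 and their median was 0.0. Some of the tested genes passed the filter only through the group where they were high, as given above.

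**Figure D1:**
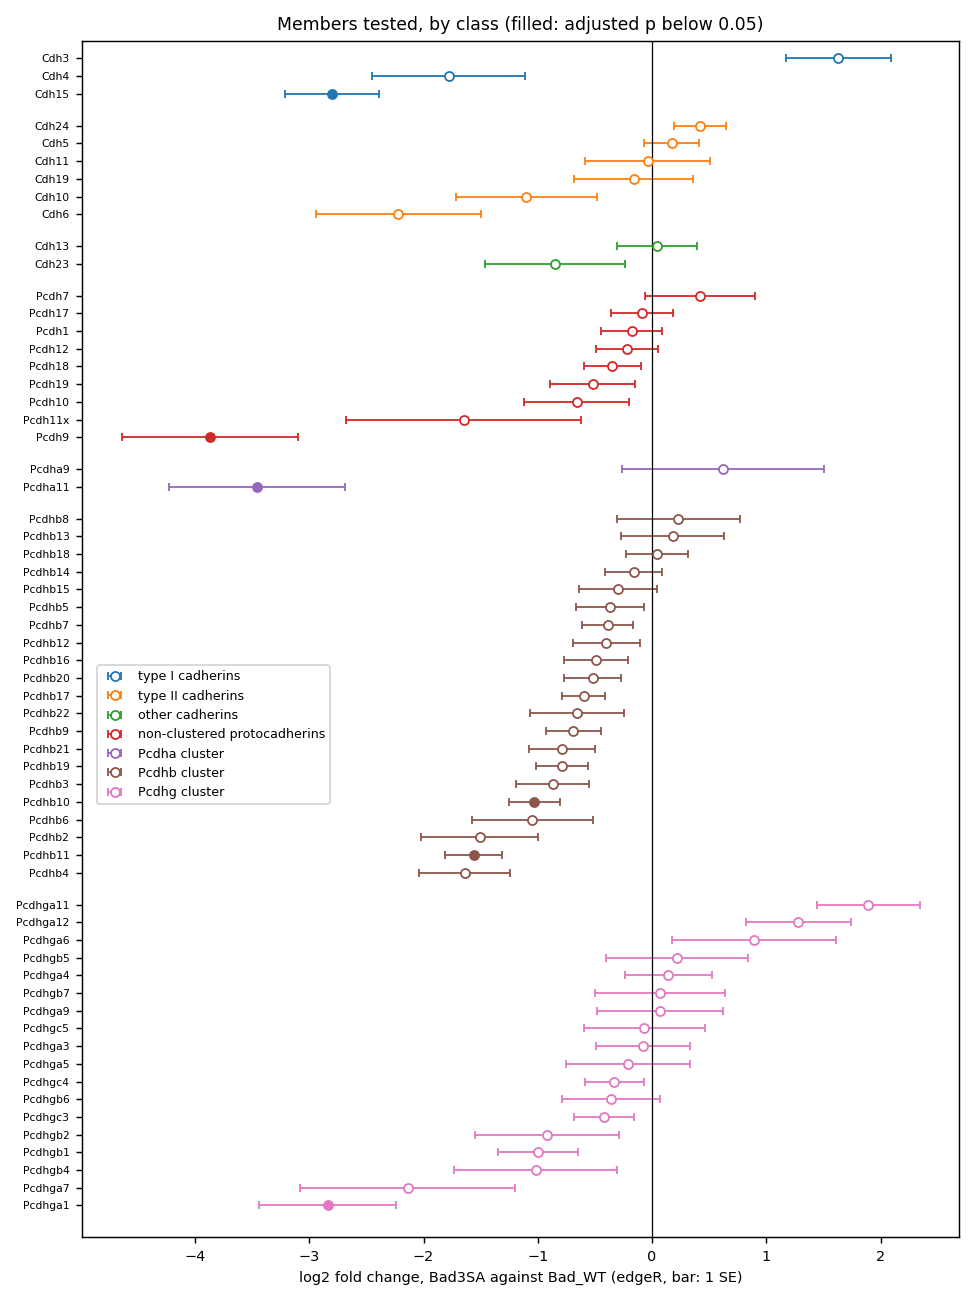
Log2 fold change of each of the 61 tested genes, Bad3SA against Bad_WT (x axis, edgeR, bars 1 SE), ordered within class, with filled points at an adjusted p below 0.05. The 6 filled points all lie below 0, from -3.87 (Pcdh9) to -1.03 (Pcdhb10), and Cdh3 and Pcdhga11 lie farthest to the right at 1.63 and 1.89.

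End-point age was higher in the Bad3SA group, at 27.5 ± 2.85 weeks against 24.0 ± 1.94 weeks (mean and SD, n = 6 each). With age as a covariate in edgeR, none of these genes passed, and 15 had an unadjusted p below 0.05; 73 genes of the whole table passed in that fit. The adjusted p was then 0.0679 for Pcdhb11, 0.0919 for Cdh15, 0.139 for Pcdhga1, 0.191 for Pcdha11 (ENSMUSG00000007440), 0.199 for Pcdhb10 and 0.315 for Pcdh9. In that fit the log2 fold change was -3.66 for Pcdh9, -3.54 for Pcdha11 (ENSMUSG00000007440) and -3.28 for Pcdhga1. It was -2.61 for Cdh15, -1.62 for Pcdhb11 and -1.11 for Pcdhb10. Without the age term these values, in the same order, were -3.87, -3.46, -2.84, -2.80, -1.56 and -1.03. The groups differ in age, so age and genotype cannot be fully told apart. Leaving out 1 tumour at a time gave 2 to 6 of these genes as called. Only 2 were left without Bad_WT 1 or without Bad3SA 1, 3 or 5, and 3 without Bad_WT 2, 3, 5 or 6 or without Bad3SA 4 or 6. Without Bad3SA 2 it was 5. Without Bad_WT 4 it was 6, with Pcdhb10 out and Cdh3 in.

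Of the 3 type I cadherins, 1 was called lower in edgeR, beside 0.76% of all genes tested. Cdh15 encodes M-cadherin, known from skeletal muscle and its precursor cells (ENSMUSG00000031962, GRCm38 chromosome 8, 122847966 to 122867397). It stood at 1.15, 0.727, 2.70, 1.22, 1.04 and 1.21 CPM in Bad_WT 1 to 6, and at 0.189, 0.342, 0.257, 0.141, 0.127 and 0.0835 CPM in Bad3SA 1 to 6. Every Bad_WT tumour was above every Bad3SA tumour, a separation that 1.27% of all genes tested showed in this direction. Over each group of 6 tumours that was 609 counts against 81 counts. Cdh15 fell by 2.80 on the log2 scale (edgeR SE 0.41, adjusted p = 0.00316), and it passed in all 12 fits that left out 1 tumour.

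Skeletal muscle markers were measured beside Cdh15. Within Bad_WT their sum was highest in Bad_WT 4, at 973 CPM, where Cdh15 was at 1.22 CPM, and was 1.39 CPM in Bad_WT 3, the tumour with the most Cdh15. Within Bad3SA, the sum (124 CPM) and Cdh15 (0.342 CPM) were both highest in Bad3SA 2. Bad3SA 6 had the next highest sum of its group (68.2 CPM) and the lowest Cdh15 (0.0835 CPM). Of the 7 markers, 4 were tested and none passed in edgeR, at an unadjusted p or in DESeq2. Their median log2 fold change was -2.36. The transcription factor Myf5, which defines muscle precursors, was at 0 in all 12 tumours, and Myod1 was between 0 and 0.176 CPM. Pax7, the marker of muscle stem cells, was between 0.0149 and 0.098 CPM in Bad_WT and between 0 and 0.0366 CPM in Bad3SA. The part of muscle cells or their precursors in the Cdh15 difference was not tested.

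Cdh3 and Cdh4 did not pass in edgeR. Cdh3, or P-cadherin, stood at 1.57, 5.52, 2.10, 15.7, 9.23 and 6.73 CPM in Bad_WT 1 to 6 and at 16.9, 22.6, 30.3, 18.9, 14.9 and 22.5 CPM in Bad3SA 1 to 6. The groups overlap only through Bad_WT 4, which was above Bad3SA 5. The log2 fold change was 1.63 (SE 0.46, edgeR adjusted p = 0.118). Without Bad_WT 4 it was 2.07 and passed, at an edgeR adjusted p of 0.0264. DESeq2 gave an adjusted p of 0.0144 for Cdh3, and the fit with age gave 0.502. The basal and myoepithelial markers (Krt5, Krt14, Acta2, Trp63 and 4 others) were all tested, and none passed in edgeR, at an unadjusted p or in DESeq2. Their log2 fold change was above 0 for 6 of 8, with a median of 0.39, and none was at 0. They summed to 534 to 2150 CPM in Bad_WT, highest in Bad_WT 4, and to 809 to 1690 CPM in Bad3SA. Their part in the Cdh3 difference was not tested. For Cdh4, or R-cadherin, the log2 fold change was -1.78 (SE 0.67, edgeR adjusted p = 0.225), with Bad_WT 6 at 6.91 CPM and the other Bad_WT tumours at 0.179 to 2.78 CPM.

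None of the 13 type II cadherins passed in edgeR or was called higher by DESeq2. Of them 6 were tested, with a median log2 fold change of -0.10, and 4 (66.7%) were below 0, beside 49.6% of all genes tested. In edgeR 1 had an unadjusted p below 0.05 (16.7%, beside 16.2%). That gene was Cdh6 (K-cadherin), which stood at 0.146 to 0.729 CPM in Bad_WT and at 0 to 0.267 CPM in Bad3SA. Its log2 fold change was -2.22 (SE 0.72, edgeR adjusted p = 0.169), and DESeq2 called it lower at an adjusted p of 0.0404. Cdh5, the adhesion protein of endothelial junctions, was the most abundant of the type II genes. It ran from 21.4 to 39.7 CPM in Bad_WT (median 28.1) and from 20.1 to 52.9 CPM in Bad3SA (median 29.3), with a log2 fold change of 0.17 (edgeR SE 0.24, adjusted p = 0.728). The endothelial markers (Pecam1, Kdr, Cldn5 and 5 others) summed to 82.9 to 137 CPM in Bad_WT and to 81.2 to 166 CPM in Bad3SA. Their log2 fold change was above 0 for 6 of 8, with a median of 0.06. None passed in edgeR, 1 had an unadjusted p below 0.05, and DESeq2 called 1.

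Cdh11 and Cdh19 also overlapped widely between the groups. Cdh11, known from fibroblasts and bone, ran from 2.03 to 17.8 CPM in Bad_WT (median 8.92) and from 1.48 to 18.9 CPM in Bad3SA (median 8.24). Its log2 fold change was -0.04 (SE 0.55, edgeR adjusted p = 0.972), and -1.51 with age as a covariate (edgeR adjusted p = 0.435). Fibroblast markers (Pdgfra, Col1a1, Dcn and 5 others) summed to 242 to 1530 CPM in Bad_WT and to 232 to 1700 CPM in Bad3SA. Cdh19, known from Schwann cells and their precursors, was at 1.83 CPM in Bad_WT 6 and at 16.9 to 27.7 CPM in the other Bad_WT tumours. In Bad3SA it ran from 5.98 to 27.3 CPM, and its log2 fold change was -0.16 (SE 0.52, edgeR adjusted p = 0.893). Of the Schwann cell markers, Ngfr was also lowest in Bad_WT 6, at 0.278 CPM. Cdh20 was not tested and had 145 counts in Bad_WT, most of them in Bad_WT 3 at 1.35 CPM, and 11 counts in Bad3SA.

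Of the other cadherins, Cdh13 and Cdh23 were tested and neither passed, at an unadjusted p or in DESeq2. Cdh13, or T-cadherin, is held in the membrane by a lipid anchor and binds adiponectin. It ran from 10.1 to 22.0 CPM in Bad_WT and from 6.54 to 25.5 CPM in Bad3SA, with a log2 fold change of 0.04 (edgeR SE 0.35, adjusted p = 0.964). Cdh23 forms the tip links of hair cells in the inner ear. Bad_WT 5 and 6 held 13.0 and 13.9 CPM of it, the other Bad_WT tumours 1.06 to 2.92 CPM and the Bad3SA tumours 1.73 to 6.06 CPM. Its log2 fold change was -0.85 (SE 0.61, edgeR adjusted p = 0.495). Cdh16, Cdh17 and Cdh26 were not tested.

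Among the protocadherins outside the clusters, 9 were tested and 1 was called lower in edgeR (11.1%, beside 0.76% of all genes tested). Of the 9, 8 had a log2 fold change below 0 (88.9%, beside 49.6%), with a median of -0.35. The gene that fell was Pcdh9, known from the nervous system (ENSMUSG00000055421, GRCm38 chromosome 14, 93013410 to 93890679, minus strand). It stood at 1.16, 0.427, 2.48, 0.149, 0.968 and 0.327 CPM in Bad_WT 1 to 6, and at 0.0135, 0.0122, 0.0906, 0.110, 0.0181 and 0.125 CPM in Bad3SA 1 to 6. The groups did not overlap, but the lowest Bad_WT tumour lay just above the highest Bad3SA tumour, and 3 of the Bad3SA values lie below that of 3 counts. The groups held 435 and 25 counts, and Pcdh9 passed the filter through Bad_WT alone. Pcdh9 fell by 3.87 on the log2 scale (edgeR SE 0.77, adjusted p = 0.0238). The call was lost without Bad_WT 1 or 5 or without Bad3SA 1, 3, 4 or 5, with adjusted p values of 0.0524 to 0.0628.

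Of the 6 neuronal markers, 2 were tested and neither passed in edgeR or in DESeq2, but 1 had an unadjusted p below 0.05. The list summed to 90.8 to 112 CPM in Bad_WT and to 62.7 to 111 CPM in Bad3SA. Nearly all of that was Map2, so the sum says little of the other markers. The log2 fold change was -0.19 for Map2 (edgeR adjusted p = 0.449) and 1.34 for Rbfox3 (adjusted p = 0.26). Of the untested neuronal markers, Syt1, Nefl and Elavl4 stayed below 0.13 CPM in every tumour and Snap25 reached 0.589 CPM in Bad3SA 3. 

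The stretch of 250 bases before the Pcdh9 start, chr14:93890680-93890929 on the minus strand of GRCm38.p6 (RefSeq), is shown because Pcdh9 was the gene with the largest fall whose promoter could be printed. It is written 5′ to 3′ with each CG dinucleotide in capitals.
Pcdh9: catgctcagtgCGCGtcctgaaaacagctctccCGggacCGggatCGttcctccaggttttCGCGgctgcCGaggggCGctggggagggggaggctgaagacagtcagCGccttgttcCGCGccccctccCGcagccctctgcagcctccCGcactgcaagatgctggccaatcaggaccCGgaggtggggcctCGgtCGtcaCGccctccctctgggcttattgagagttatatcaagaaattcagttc
It holds 18 CG dinucleotides, beside a median of 6 over the 32851 RefSeq promoters, of which 21.7% hold at least 18. It does not hold CACCTG, the E-box bound by the cadherin repressors SNAI1 and ZEB1, on either strand. CACCTG stands in 17.2% of all windows of this length. The longer RefSeq windows around the starts of Cdh15 and Pcdh9 (250 bases before and 50 after) do not hold it either, beside 20.2% of all such windows.

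The abundant protocadherins outside the clusters did not pass in edgeR or DESeq2. Pcdh1, known from airway and other epithelia, had the highest level in CPM of all 90 genes. It ran from 42.8 to 69.2 CPM in Bad_WT (median 63.5) and from 23.1 to 84.3 CPM in Bad3SA (median 52.0), with a log2 fold change of -0.18 (edgeR SE 0.27, adjusted p = 0.752). Pcdh18 ran from 15.5 to 53.2 CPM in Bad_WT and from 21.3 to 33.8 CPM in Bad3SA, with a log2 fold change of -0.35 (edgeR SE 0.25, adjusted p = 0.496). Pcdh12, known from endothelium, ran from 3.38 to 5.56 CPM in Bad_WT and from 1.89 to 5.96 CPM in Bad3SA, at -0.22 (SE 0.27, edgeR adjusted p = 0.693). Per kilobase of exon not shared with another gene on the same strand, the order of mean levels was Cdh5 at 7.38 CPM, Pcdh1 at 6.36, Pcdhgc3 at 5.90, Pcdh18 at 5.82 and Cdh19 at 4.27. On that scale Cdh15 stood at 0.235 CPM and Pcdh9 at 0.0722 CPM.

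**Figure D2:**
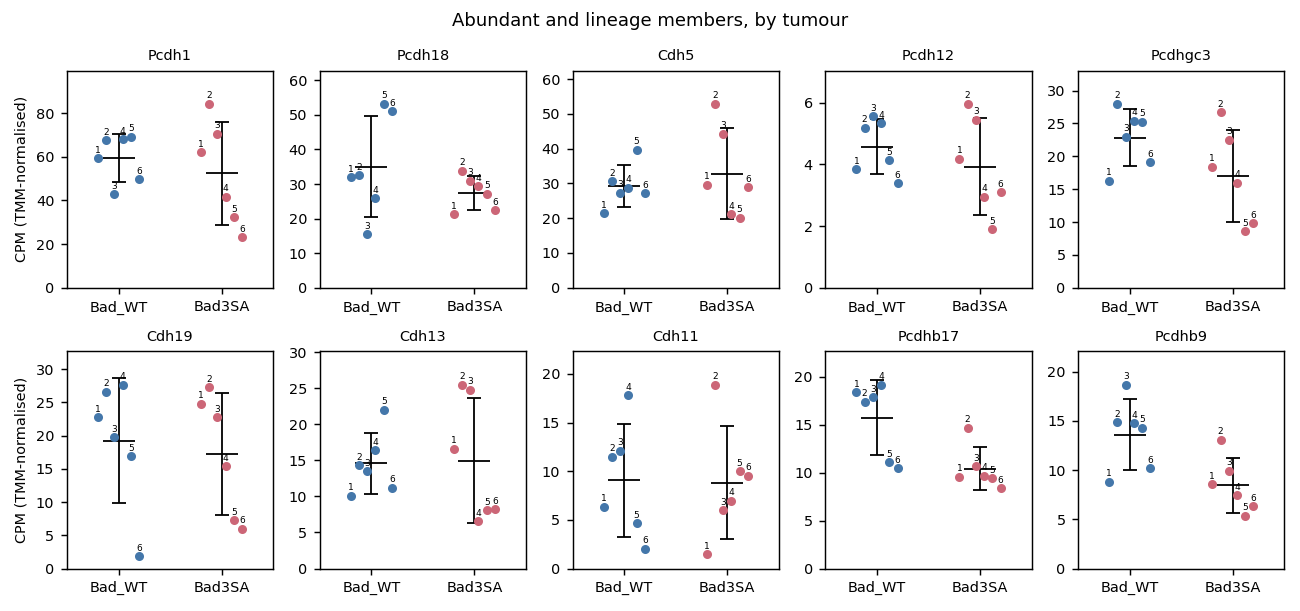
Level in CPM (linear y axes, each starting at 0) of 10 abundant genes or genes with a known lineage, 1 numbered point per tumour, with the group mean and SD (n = 6 each). The groups overlap in each of the 10 genes, and Cdh19 is at 1.83 CPM in Bad_WT 6.

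**Figure D3:**
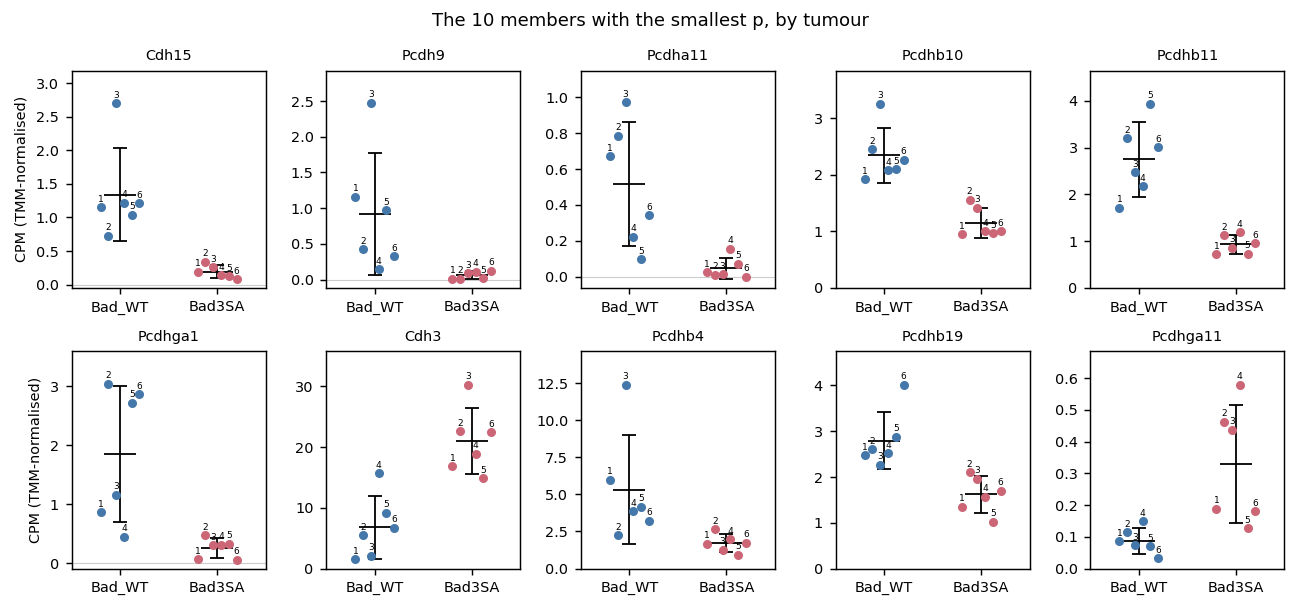
Level in CPM (linear y axes) of the 10 tested genes with the smallest p, 1 numbered point per tumour, with the group mean and SD (n = 6 each); Pcdha11 is ENSMUSG00000007440. Cdh15, Pcdh9, Pcdhb10, Pcdhb11 and Pcdhb19 do not overlap between the groups, Cdh3 overlaps only through Bad_WT 4 (15.7 CPM), and Pcdha11, Pcdhga1, Pcdhb4 and Pcdhga11 overlap.

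The clustered protocadherins lie in a row on chromosome 18. Of the 41 tested, 4 were called lower in edgeR (9.76%, beside 0.76% of all genes tested). Among these 4, Pcdha11 (ENSMUSG00000007440) passed the filter mainly through Bad_WT. How far single genes can be told apart differs between the clusters. Stretches of 100 bases (the read length) in each gene's transcripts were looked up in other genes. For Pcdha 41.6% to 88.4% also occur in another gene, and for Pcdhg 30.8% to 62.7%, mostly through the constant exons. For Pcdhb it was 0% to 7.73%. The highest Pcdha and Pcdhg shares were those of Pcdha4 and Pcdhga4, where other exon sequence is shared too. These have 494 and 1570 exonic bases free of other genes on their strand. The sources used here do not say how reads from constant exons were counted, or whether by strand. The values of single Pcdha and Pcdhg genes are therefore uncertain. Whether reads from antisense partners, such as BC037039, which overlaps Pcdhgc3, were kept apart is not known either.

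The Pcdha cluster was close to the detection limit, and its sum was lower in Bad3SA. The 14 genes together stood at 2.93, 1.64, 3.56, 1.25, 1.35 and 1.36 CPM in Bad_WT 1 to 6 and at 0.393, 0.976, 0.362, 0.486, 0.254 and 0.153 CPM in Bad3SA 1 to 6. Every Bad3SA tumour lay below every Bad_WT tumour. The means were 2.01 ± 0.984 and 0.437 ± 0.288 CPM (SD, n = 6 each), a ratio of 0.217. The ratio ran from 0.164 (without Bad3SA 2) to 0.257 (without Bad_WT 3) when 1 tumour was left out. In counts, the cluster held 938 in Bad_WT and 189 in Bad3SA, and 10 of its genes had the higher mean in Bad_WT and 3 in Bad3SA.

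Which Pcdha genes made up that sum differed from tumour to tumour. The leading gene was Pcdha8 in Bad_WT 1 (39.2% of the sum), Pcdha11 (ENSMUSG00000007440) in Bad_WT 2 (47.9%), Pcdha2 in Bad_WT 3 (28.3%) and Pcdha5 in Bad_WT 5 and 6 (34.4% and 56.6%). Bad_WT 4 had Pcdha2 and Pcdha9 level at 26.2%. In Bad3SA the leading gene was Pcdha9 or Pcdhac2. It rested on 5 counts (Pcdha9 in Bad3SA 6) to 28 counts (Pcdhac2 in Bad3SA 2). In Bad_WT the leading gene had 22 counts (Bad_WT 4) to 94 counts (Bad_WT 1). At least 1 count was found for 8 to 10 of the 14 genes in Bad_WT tumours and for 4 to 8 in Bad3SA tumours. How far the few reads set these shares and numbers was not tested.

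Only Pcdha9 and 1 Pcdha11 gene passed the filter. Pcdha11 (ENSMUSG00000007440) stood at 0.671, 0.785, 0.973, 0.223, 0.0982 and 0.343 CPM in Bad_WT 1 to 6 and at 0.0271, 0.0122, 0.0151, 0.157, 0.0726 and 0 CPM in Bad3SA 1 to 6. The groups overlap, since Bad_WT 5 lay below Bad3SA 4. It fell by 3.46 on the log2 scale (edgeR SE 0.77, adjusted p = 0.0448), on 246 counts against 18. The call held in 3 of 12 fits with 1 tumour left out (those without Bad_WT 4, Bad_WT 5 or Bad3SA 4), and the adjusted p was 0.056 to 0.116 in the others. For Pcdha9 the log2 fold change was 0.62 (SE 0.88, edgeR adjusted p = 0.736). Of the genes that the filter left out, DESeq2 called Pcdha1, Pcdha2, Pcdha3 and Pcdha5 lower. In the authors' deposited table Pcdha2 and Pcdha3 are below 0.05 (adjusted p 0.0146 and 0.0139), and Pcdha1 and Pcdha5 are not (0.122 and 0.055). They held 88, 159, 53 and 97 counts in Bad_WT and 3, 9, 3 and 8 counts in Bad3SA. The Bad_WT counts came from few tumours: Bad_WT 3 held 64 of those of Pcdha1 and 83 of those of Pcdha2, and Bad_WT 5 and 6 held 33 and 47 of those of Pcdha5.

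**Figure D4:**
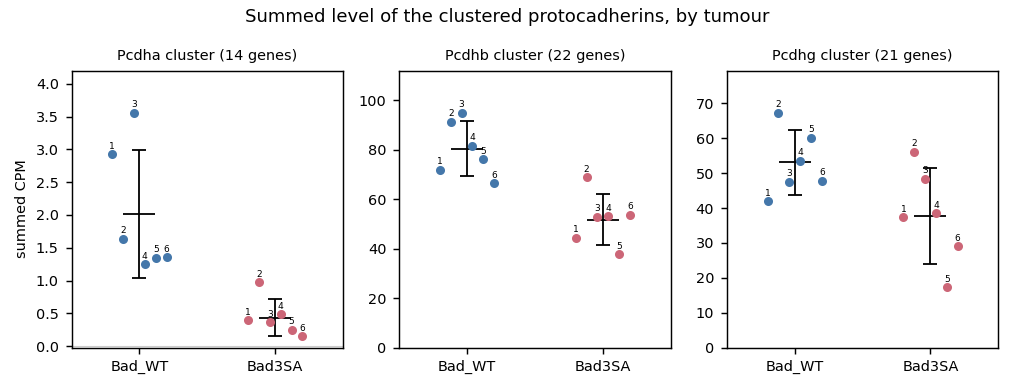
Summed level in CPM (linear axes) of the Pcdha, Pcdhb and Pcdhg clusters, 1 numbered point per tumour, with the group mean and SD (n = 6 each). For Pcdha all 6 Bad3SA tumours lie below every Bad_WT tumour, for Pcdhb 5 of 6 do, and for Pcdhg 4 of 6 do.

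The Pcdhb cluster, made of single-exon genes, was the most abundant of the 3. Its 22 genes summed to 71.8, 91.2, 94.8, 81.6, 76.2 and 66.4 CPM in Bad_WT 1 to 6 and to 44.3, 68.7, 52.9, 53.0, 37.7 and 53.7 CPM in Bad3SA 1 to 6. Bad3SA 2 was the 1 Bad3SA tumour within the Bad_WT range. The means were 80.3 ± 11.1 and 51.7 ± 10.4 CPM, a ratio of 0.644, which ran from 0.602 to 0.679 with 1 tumour left out. Of the 22 genes, 19 had the higher mean in Bad_WT. Of the 21 tested, 18 had a log2 fold change below 0 (85.7%, beside 49.6% of all genes tested), with a median of -0.60. In edgeR 2 were called lower (9.52%, beside 0.76%). DESeq2 called 5, beside 4.21% of all genes.

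The pair that passed, Pcdhb10 and Pcdhb11, are neighbours in the cluster. Pcdhb11 (ENSMUSG00000051486, GRCm38 chromosome 18, 37421418 to 37425836) stood at 1.71, 3.20, 2.47, 2.17, 3.94 and 3.01 CPM in Bad_WT 1 to 6 and at 0.717, 1.13, 0.861, 1.19, 0.726 and 0.960 CPM in Bad3SA 1 to 6. The groups did not overlap. Pcdhb11 fell by 1.56 on the log2 scale (edgeR SE 0.25, adjusted p = 0.00658) and passed in all 12 fits that left out 1 tumour. Pcdhb10 (ENSMUSG00000045657, 37411664 to 37414514) stood at 1.92, 2.45, 3.26, 2.08, 2.10 and 2.27 CPM in Bad_WT and at 0.947, 1.56, 1.42, 1.00, 0.962 and 1.00 CPM in Bad3SA. These groups did not overlap either. Pcdhb10 fell by 1.03 on the log2 scale (edgeR SE 0.22, adjusted p = 0.0406). That call rests on all but 1 of the tumours: it held without Bad3SA 2 and was lost, at adjusted p values of 0.0536 to 0.115, without any of the other 11.

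Other Pcdhb genes did not pass in edgeR, and DESeq2 called Pcdhb4, Pcdhb19 and Pcdhb2 lower, at adjusted p values of 0.00234, 0.0113 and 0.0454. Pcdhb4 stood at 5.99, 2.23, 12.4, 3.86, 4.17 and 3.23 CPM in Bad_WT and at 1.68, 2.65, 1.27, 1.96, 0.926 and 1.75 CPM in Bad3SA, with a log2 fold change of -1.64 (edgeR SE 0.40, adjusted p = 0.0682). The groups overlap through Bad_WT 2. Pcdhb19 stood at 2.27 to 4.02 CPM in Bad_WT and at 1.02 to 2.11 CPM in Bad3SA without overlap, at -0.79 (SE 0.23, edgeR adjusted p = 0.134). The most abundant genes of the cluster were Pcdhb17 and Pcdhb9. For Pcdhb17 the range was 10.5 to 19.2 CPM in Bad_WT and 8.36 to 14.7 CPM in Bad3SA, and the log2 fold change -0.60 (SE 0.19, edgeR adjusted p = 0.171). For Pcdhb9 it was 8.84 to 18.7 CPM and 5.39 to 13.1 CPM, at -0.69 (SE 0.24, edgeR adjusted p = 0.191). Pcdhb17 led the cluster in all 6 Bad3SA tumours and in Bad_WT 1, 4 and 6, and Pcdhb9 led in Bad_WT 3 and 5.

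**Figure D5:**
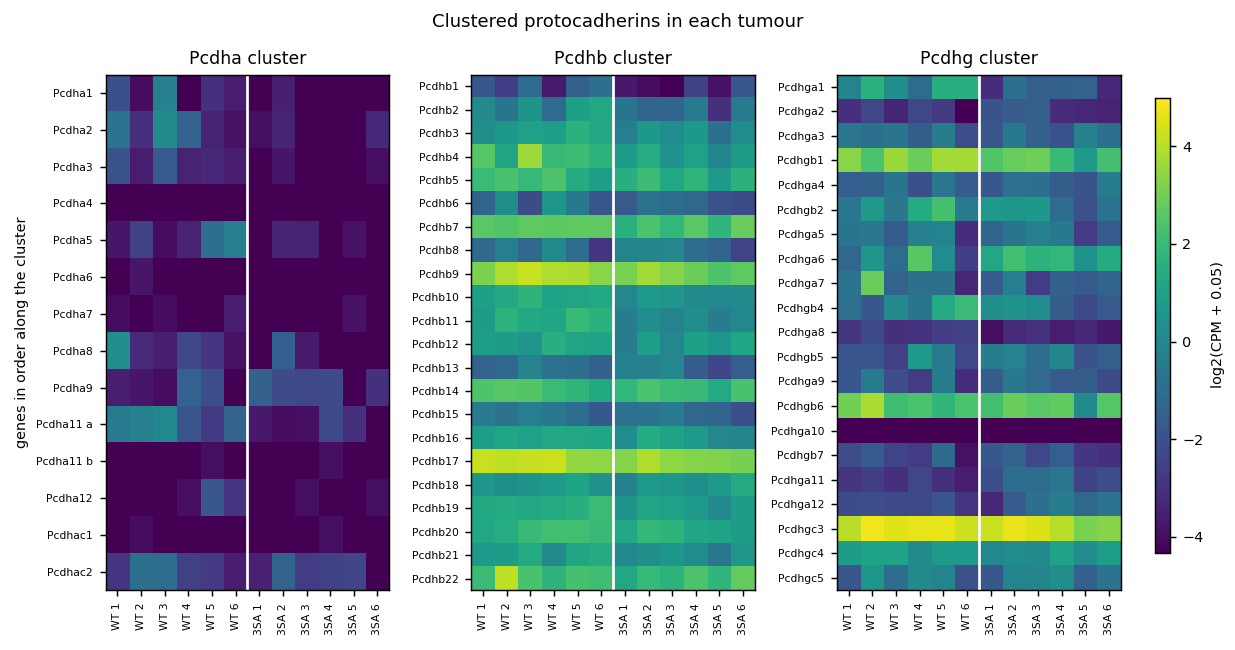
Level of every clustered protocadherin (rows, in chromosomal order within each cluster) in each tumour (columns), as a colour on a log2(CPM + 0.05) scale. Pcdha11 a and Pcdha11 b stand for ENSMUSG00000007440 and ENSMUSG00000102206. Most Pcdha rows are at or near the bottom of the scale in the Bad3SA tumours (3SA). Of these, Pcdha4, Pcdha6, Pcdha7, Pcdhac1 and Pcdha11 b are there in the Bad_WT tumours as well. Pcdhgc3 leads the Pcdhg rows in all 12 tumours, and Pcdhb22 and Pcdhga7 stand out in Bad_WT 2.

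The Pcdhg cluster overlapped between the groups. Its 21 genes summed to 41.9, 67.3, 47.6, 53.6, 60.2 and 47.9 CPM in Bad_WT 1 to 6 and to 37.4, 56.2, 48.4, 38.5, 17.3 and 29.0 CPM in Bad3SA 1 to 6. The means were 53.1 ± 9.34 and 37.8 ± 13.8 CPM, a ratio of 0.712, which was 0.643 without Bad3SA 2 and 0.789 without Bad3SA 5. Of the 18 genes tested, 11 had a log2 fold change below 0 (61.1%, beside 49.6% of all genes tested), with a median of -0.15. In edgeR 1 was called lower (5.56%, beside 0.76%). Pcdhgc3 was the leading gene in every tumour, with 33.9% to 49.9% of the sum. It ran from 16.3 to 28.0 CPM in Bad_WT and from 8.64 to 26.7 CPM in Bad3SA, with a log2 fold change of -0.42 (edgeR SE 0.26, adjusted p = 0.423).

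Pcdhga1 was the Pcdhg gene that fell (ENSMUSG00000103144, GRCm38 chromosome 18, 37661793 to 37841873). It stood at 0.866, 3.04, 1.16, 0.447, 2.72 and 2.86 CPM in Bad_WT 1 to 6 and at 0.0677, 0.476, 0.302, 0.314, 0.327 and 0.0556 CPM in Bad3SA 1 to 6. The groups overlap, since Bad_WT 4 lay below Bad3SA 2. Pcdhga1 fell by 2.84 on the log2 scale (edgeR SE 0.60, adjusted p = 0.0380). The call held without Bad_WT 4 and without Bad3SA 2, and was lost without any of the other 10 tumours, at adjusted p values of 0.05 to 0.0897.

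Values in the other direction occurred in the same cluster. Pcdhga11 stood at 0.0854, 0.115, 0.073, 0.149, 0.0701 and 0.0327 CPM in Bad_WT 1 to 6 and at 0.189, 0.463, 0.438, 0.580, 0.127 and 0.181 CPM in Bad3SA 1 to 6. The groups overlap through Bad_WT 4. Its log2 fold change was 1.89 (SE 0.45, edgeR adjusted p = 0.0625), on 40 counts in Bad_WT and 138 in Bad3SA. DESeq2 gave it an adjusted p of 0.00669. The antisense gene Gm26672 overlaps Pcdhga11, and whether its reads were kept apart from those of Pcdhga11 is not known. For Pcdhga12 and Pcdhga6 the log2 fold change was 1.28 and 0.89, and neither passed (edgeR adjusted p = 0.208 and 0.54).

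Genes around the clusters did not share the lower levels. Within 300 kb of the clusters lie 24 other tested genes, and 17 of them had a log2 fold change above 0, with a median of 0.12. Below 0 were 29.2% of the 24, beside 49.6% of all genes tested. None passed in edgeR or in DESeq2, and 1 had an unadjusted p below 0.05 (4.17%, beside 16.2% of all genes tested). Taf7, which lies between Pcdhb and Pcdhg genes, was at 0.19 (edgeR adjusted p = 0.408), and Diaph1 was at -0.23 (edgeR adjusted p = 0.386).

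The proteins that set promoter choice in the clusters were also looked at in RNA. That list held 11 genes, among them Ctcf, the cohesin subunit Rad21, Smchd1 and Dnmt3b. All 11 had a log2 fold change below 0 (median -0.22), beside 49.6% of all genes tested. None passed in edgeR or in DESeq2, and 4 had an unadjusted p below 0.05 (36.4%, beside 16.2% of all genes tested). Smchd1, a chromatin protein that represses the clusters, was at -0.33 (edgeR adjusted p = 0.26). Dnmt3b, a DNA methyltransferase, was at -0.57 (edgeR adjusted p = 0.26).

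Intracellular partners were measured in 2 lists. Of the catenins and junction plaque genes, 11 were tested and 1 fell, in edgeR (9.09%, beside 0.76% of all genes tested) and in DESeq2. Ctnnd2, the delta-catenin known from neurons, averaged 11.1 ± 1.47 CPM in the Bad_WT tumours and 3.28 ± 1.54 CPM in the Bad3SA tumours (SD, n = 6 each). It fell by 1.76 on the log2 scale (edgeR SE 0.28, adjusted p = 0.00634) and passed in all 12 fits with 1 tumour left out, and with age its adjusted p was 0.0858. The other catenin named by rule, Ctnnal1, was at 0.49 (edgeR adjusted p = 0.183). Of the WAVE complex and kinase genes downstream of protocadherins, 13 were tested and none passed in edgeR or in DESeq2. The log2 fold change was below 0 for 10 of them (76.9%), and 3 (23.1%) had an unadjusted p below 0.05. Over all genes tested those shares were 49.6% and 16.2%. Abi2 and Brk1, both WAVE subunits, were at -0.43 and 0.34 (edgeR adjusted p = 0.171 and 0.278).

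Of the rest of the cadherin superfamily, 22 genes were tested, with 11 in each direction. In edgeR 1 fell (4.55%, beside 0.76% of all genes tested), and 5 had an unadjusted p below 0.05 (22.7%, beside 16.2%). DESeq2 called 3, beside 4.21% of all genes. Cdhr1, a protocadherin-like protein known from photoreceptors, averaged 121 ± 17.8 CPM in the Bad_WT tumours and 67.5 ± 14.8 CPM in the Bad3SA tumours (SD, n = 6 each). It fell by 0.84 on the log2 scale (edgeR SE 0.15, adjusted p = 0.0139). Without Bad3SA 3 the adjusted p was 0.0507, and with age it was 0.0586. Celsr1, a seven-pass cadherin of planar cell polarity, was at -1.01 (edgeR adjusted p = 0.0713, DESeq2 adjusted p = 0.0082).

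Sheddases and repressors of cadherins did not pass in edgeR. Of 6 shedding proteases tested, 2 had an unadjusted p below 0.05 (33.3%, beside 16.2% of all genes tested). DESeq2 called Mmp7, a matrix metalloprotease (edgeR log2 fold change 1.63, edgeR adjusted p = 0.189, DESeq2 adjusted p = 0.0484). Of 8 repressors and tip-link partners tested, 7 had a log2 fold change below 0, beside 49.6% of all genes tested. An unadjusted p below 0.05 was found for 2 of the 8, beside 16.2% of all genes tested. DESeq2 called Klf8 (edgeR log2 fold change -1.45, edgeR adjusted p = 0.141, DESeq2 adjusted p = 0.0194). Myo7a, the motor that anchors tip links, was at -0.51 (edgeR adjusted p = 0.276).

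The authors' deposited table, made with DESeq2 per the submitters' processing notes, gives an adjusted p for 75 of these genes. Of these, 14 in the authors' deposited table are below 0.05, 12 lower and 2 higher in Bad3SA, and these include the 6 called by edgeR. Directions in that table were oriented by the edgeR fit, so a shared direction is partly built in. The 2 higher genes in the authors' deposited table are Cdh3 (adjusted p 0.0148) and Pcdhga11 (adjusted p 0.00624). Of all genes with a value there, 4.02% are below 0.05. DESeq2 run on the deposited counts called 16 of these genes, 14 lower and 2 higher, beside 4.21% of all genes.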

How the data were processed

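The authors deposited raw counts per gene for each tumour, as whole numbers. The tools fastp 0.23.1, STAR 2.7.9a and DESeq2 and the build GRCm38 are listed in the submitters' processing notes, without settings. The sources used here do not say which counter and annotation were used, or whether by strand. The authors' deposited comparison holds, per the file headers, a log2 fold change with its standard error, the Wald score, p-values and a signal (the mean normalised count). Only its direction and adjusted p-values were used. Its direction was oriented by the sign of the correlation with the edgeR log2 fold changes over the genes tested.

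Counts were filtered with filterByExpr, scaled with TMM and tested for genotype with the quasi-likelihood F test of edgeR 4.0.16 (robust) in R 4.3.3, adjusted by Benjamini-Hochberg over 18019 genes, with a threshold of 0.05. The SE is the absolute log2 fold change over the square root of F. The fit was tested on simulated data. CPM values are TMM-scaled. The value of 3 counts covers counting error only. Positions and shared stretches come from GENCODE release 21 for mouse (GRCm38), promoters from RefSeq (GRCm38.p6), which held 22 of the 90 genes. Python 3.11.15 and matplotlib 3.10.9 drew the plots.

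The genes, lists and tests were chosen with earlier results of these data known. Named were genes past the threshold, the 10 tested with the smallest p, the 10 with the highest mean CPM, Cdh3, Cdh5, Cdh11, Pcdh12 and the cluster sums, and in related lists those past the threshold or the 2 with the smallest p. A gene that this rule takes from the protease list is not reported here. Cdh4, Cdh6, Cdh20, Cdh23, Pcdhb2, Pcdha1, Pcdha2, Pcdha3, Pcdha5, Pcdha9, Pcdhga6, Pcdhga12, Taf7 and Diaph1 were named after their values were seen, as were the genes that lead or peak in single tumours. Markers covered 8 cell types. Alternatives were DESeq2 1.42.0 (size factors, Wald test), other filters, an age term, a block for the title number, and leaving out each tumour.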

Additional observations from a re-analysis of the deposited data

Results flagged for a closer look

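Cdh19 in Bad_WT 6 stood apart from the other tumours of its group. It was at 1.83 CPM, against 16.9 to 27.7 CPM in the other 5 Bad_WT tumours. In log2 CPM its gap to the nearest tumour was 0.818 of the group's whole range, above the critical value of Dixon's test for 6 samples. In all 40 groups of 6 were looked at, and this was the 1 value that stood apart. Chance gives about 1 such value in 20 groups.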

How the results depend on the processing

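Of the 18019 genes tested, 249 passed in edgeR, and 6 of the cadherins and protocadherins. DESeq2 size factors gave 238 and 6, and no filter gave 266 and 6, of which 5 were shared (Pcdhb4 in, Pcdhb10 out). The DESeq2 Wald test gave 998 and 16, at least 1 CPM in 6 tumours gave 163 and 2, and end-point age gave 73 and 0. Leaving out 1 tumour gave 147 to 315 genes and 2 to 6 of the members. The median log2 fold change of the tested members was between -0.48 and -0.30 in those fits. The cause of these differences was not tested, except that the 1 CPM filter tested fewer genes.

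With the title number as a replicate block, 105 genes and 1 member (Cdh15, adjusted p = 0.0302) passed. Same-numbered tumours did not deviate together: correlations of their deviations for numbers 1 to 6 were -0.0793, 0.0188, -0.218, -0.271, -0.249 and 0.283, and only number 6 matched its own number best. The labels do not tie the numbers to pairs of mice, so the block is no check of the size of the effect.

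Direction reversed in 4 uncalled genes. With 1 tumour left out, Cdh11 ran from -0.42 to 0.27, Cdh13 from -0.18 to 0.21, Cdh19 from -0.40 to 0.0175 and Cdh5 from -0.017 to 0.29, and Cdh13 was at -0.12 with the block. With age, Cdh11 was at -1.51. The cause was not tested. Of the other values for single genes over all alternatives, 494 kept direction and side of the threshold, 52 kept direction but lost the call, and 11 kept direction and gained it. An SE above 0.5 was found for 23 tested members, abundant ones such as Cdh19 and Cdh11 included, and how far depth or the spread between tumours set it was not tested.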

Other observations

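A few of these genes were high in 1 or 2 tumours of the Bad_WT group, and were picked out after their values were seen. Pcdhb22 stood at 17.4 CPM in Bad_WT 2 and at 2.29 to 6.75 CPM in the other 11 tumours, and it led the Pcdhb cluster there with 19.1% of the sum. Pcdhga7 stood at 7.29 CPM in the same tumour and at no more than 0.768 CPM elsewhere. Cdh20 stood at 1.35 CPM in Bad_WT 3, where Pcdh9, Cdh10 and Pcdh11x were also at their highest, at 2.48, 2.48 and 1.22 CPM. Pcdhgb4 and Cdh4 were highest in Bad_WT 6, at 3.99 and 6.91 CPM. In Bad3SA the sums of the 3 protocadherin clusters were all highest in Bad3SA 2.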
